A study of Homo sapiens with 8 samples.

Results

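Long intergenic noncoding RNAs that carry the symbol LINC and a number were examined in cells of the human breast cancer line SKBR3, which carries an amplified ERBB2 (HER2) gene, with and without knockdown of the transcription factor FOXA1. The set was every row of the count table whose symbol was LINC followed by digits alone and whose mean was at least 20 counts in the control or in the knockdown libraries. It held 133 of the 697 such symbols and of the 30434 genes in the table; 564 symbols lay below that mean. The RNAs were thus selected on the mean counts of all 8 libraries, the same values the groups are compared on, so their differences between the groups are given as descriptions. GENCODE 29 typed 106 of the 133 as lincRNA, 11 as processed transcript, 4 as antisense, 2 as bidirectional promoter RNA, 6 as transcribed pseudogenes of either kind and 2 as coding (LINC00672 and LINC02693), and 2 had no entry there (LINC02348 and LINC02822).

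Long intergenic noncoding RNAs are transcribed by RNA polymerase II from regions between coding genes, and are mostly capped, spliced and polyadenylated like messenger RNAs. A number in the symbol is a placeholder for a gene whose RNA has no assigned function. As a class they are known for low levels and for expression restricted to few tissues or cell states. FOXA1 is a pioneer factor of luminal breast epithelium, a forkhead protein that binds DNA in closed chromatin, largely at enhancers.

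The 4 control libraries came from SKBR3 cells of wild-type genotype. The 4 knockdown libraries came from a stable SKBR3 line carrying short hairpin RNAs against FOXA1, delivered by lentivirus; the design names 3 separate hairpins. Both were grown in the same serum-containing medium, and libraries made by an mRNA protocol were sequenced in paired reads of 101 bp. The labels do not say whether control cells carried a control vector, how many stable lines were made, or whether replicates were separate cultures, so a p-value measures only the spread between these libraries. In bulk RNA, fewer cells making an RNA and less of it per cell cannot be told apart.

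FOXA1 itself had 4180, 4239, 4071 and 4397 counts in control and 89, 87, 83 and 92 in knockdown, which left 2.06% of its mean control level (191.7 ± 1.65 to 3.96 ± 0.340 CPM, counts per 1000000 after scaling, SD, n = 4; exact two-sided permutation p = 0.0286, the smallest that 70 divisions of the libraries allow). Library totals ran from 19087878 to 23786684 counts, so that 3 counts stood for 0.123 to 0.153 CPM. Rank correlations over genes were 0.9961 to 0.9984 within control, 0.9976 to 0.9981 within knockdown and 0.8394 to 0.8425 across. All 7 epithelial and SKBR3 markers were present, summed to 18640 to 20755 CPM in control and 11609 to 12505 in knockdown. The list was split. ERBB2 (means of 7308 and 1340 CPM), KRT19, KRT7 and GRB7 were lower in knockdown (log2 fold changes of -2.45, -1.87, -1.79 and -1.54). EPCAM, KRT8 and KRT18 were higher (0.33, 0.31 and 0.58). Summed fibroblast markers were at 6.0 to 7.55 and 11.3 to 12.7 CPM. Of these 7, 3 were at 3 or fewer counts in every library, counting LUM, which had no row in the table. In the fibroblast sum COL1A1 fell (-0.31), COL3A1 (7.25) and PDGFRB (2.78) rose, and THY1 was at -0.07. Immune markers were at 4.63 to 5.82 and 0.648 to 1.62 CPM (3 of 5 at that floor of 3 counts, counting CD3E and MS4A1, which had no row). In the immune sum CD68 fell (-3.05) and CD14 rose (1.51). Endothelial markers were at 20.7 to 22.1 and 19.8 to 22.4 CPM (0 of 4), a sum in which VWF fell (-2.62) and CDH5 rose (0.32). Basal or mesenchymal markers were at 1.14 to 1.51 and 11.2 to 12.5 CPM (1 of 6, which is ZEB1, without a row). The part these sums play in the differences described here was not tested.

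Promoter windows are shown for 6 of the RNAs that differed at least 2-fold: the overlapping pair with the largest falls on chromosome 17, 2 that fell and hold a forkhead word, and 2 of the larger rises. Each runs 5′ to 3′ on the strand of the RNA, from 250 bases before its RefSeq start to 50 after it, on GRCh38.p14; capitals mark a forkhead word. RefSeq promoter windows were matched to 84 of the 133 symbols.
LINC01978, chr17:79919107-79919406, plus strand: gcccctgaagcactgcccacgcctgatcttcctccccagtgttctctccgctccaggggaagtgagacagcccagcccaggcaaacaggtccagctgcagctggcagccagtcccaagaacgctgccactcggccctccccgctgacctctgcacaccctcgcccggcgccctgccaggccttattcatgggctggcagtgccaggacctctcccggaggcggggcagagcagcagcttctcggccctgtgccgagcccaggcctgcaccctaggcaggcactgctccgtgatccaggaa
LINC01979, chr17:79926676-79926975, minus strand: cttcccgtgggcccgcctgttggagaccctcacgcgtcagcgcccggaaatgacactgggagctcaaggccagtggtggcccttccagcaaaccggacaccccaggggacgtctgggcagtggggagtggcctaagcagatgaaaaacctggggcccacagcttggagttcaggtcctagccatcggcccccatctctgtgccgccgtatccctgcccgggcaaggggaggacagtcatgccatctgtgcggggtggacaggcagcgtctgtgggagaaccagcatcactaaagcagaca
LINC00511, chr17:72640423-72640722, minus strand: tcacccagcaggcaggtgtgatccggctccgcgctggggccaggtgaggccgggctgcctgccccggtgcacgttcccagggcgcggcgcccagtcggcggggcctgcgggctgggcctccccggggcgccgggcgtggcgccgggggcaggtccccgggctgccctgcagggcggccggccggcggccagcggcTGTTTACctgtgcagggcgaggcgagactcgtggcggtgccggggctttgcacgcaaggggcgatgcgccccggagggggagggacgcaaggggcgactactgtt
LINC01270, chr20:50292470-50292769, plus strand: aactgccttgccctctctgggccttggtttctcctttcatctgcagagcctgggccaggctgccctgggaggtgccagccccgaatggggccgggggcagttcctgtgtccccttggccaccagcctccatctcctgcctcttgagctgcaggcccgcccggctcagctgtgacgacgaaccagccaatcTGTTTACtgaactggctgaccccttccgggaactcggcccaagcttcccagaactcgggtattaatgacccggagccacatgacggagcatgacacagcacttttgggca
LINC00221, chr14:106482189-106482488, plus strand: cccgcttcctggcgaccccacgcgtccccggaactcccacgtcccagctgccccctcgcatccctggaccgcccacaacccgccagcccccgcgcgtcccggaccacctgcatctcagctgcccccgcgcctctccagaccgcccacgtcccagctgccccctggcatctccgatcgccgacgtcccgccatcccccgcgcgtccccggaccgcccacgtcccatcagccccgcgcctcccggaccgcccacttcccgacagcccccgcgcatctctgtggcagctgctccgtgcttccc
LINC02035, chr3:122886263-122886562, plus strand: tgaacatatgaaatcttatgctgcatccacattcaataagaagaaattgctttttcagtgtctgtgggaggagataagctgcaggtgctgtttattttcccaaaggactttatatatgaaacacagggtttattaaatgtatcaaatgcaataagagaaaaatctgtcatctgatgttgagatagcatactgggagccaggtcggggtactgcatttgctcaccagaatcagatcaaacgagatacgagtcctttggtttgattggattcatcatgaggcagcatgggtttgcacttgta
The words searched were TGTTTAC and TATTTAC, and GTAAACA and GTAAATA, which are the same words on the other strand; GTAAATA and TATTTAC can share their bases TA, and a window was counted once however many words it held. At least 1 of them stood in 9 of the 84 windows (10.7%), against 1652 of all 27305 windows of this length (6.05%). Among RNAs that fell, 3 of 30 windows held one (10.0%), among those that rose 2 of 34 (5.88%), and among those not past the threshold 4 of 20. The word began 55 bases before the start in LINC00511 and 60 before it in LINC01270. LINC03014, which fell, held one 174 bases before its start. LINC01873 and LINC01806, which rose, held one 88 and 223 bases before the start. LINC00641, LINC00887, LINC01060 and LINC01206, not past the threshold, held one 182, 211, 147 and 244 bases before it. The windows of LINC01978, LINC01979, LINC00221 and LINC02035 held none of these words. A match is a description of letters and says nothing of whether FOXA1 binds there.

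The numbered RNAs differed in both directions. The threshold was an adjusted p under 0.05 in edgeR's quasi-likelihood test with Benjamini-Hochberg adjustment over the 16430 genes tested, which 77.1% of those genes passed. All 133 RNAs were tested and 98 passed (73.7%): 44 were lower in knockdown and 54 higher, where 37.7% of all genes were lower and 39.4% higher. A difference of at least 2-fold as well was seen in 57 RNAs (42.9%), 24 lower and 33 higher, against 28.3% of all genes (13.4% lower and 14.9% higher). Levels of the groups did not overlap in 94 RNAs (70.7%), against 72.0% of all genes. Nothing is read from these counts, because the rule admits an RNA through its higher group alone.

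How an RNA entered the set shaped these numbers. Both groups reached a mean of 20 counts for 82 RNAs, of which 53 passed the threshold (25 lower, 28 higher) and 17 differed 2-fold. Only the control group reached it for 23 RNAs and only the knockdown group for 28, and such RNAs had to differ between the groups; 19 of the 23 were lower and 26 of the 28 higher. Among RNAs with a mean of at least 20 counts over all 8 libraries, 107 remained and 76 passed, with a median log2 fold change of 0.056. The median over the 133 was 0.148, against 0.019 over all genes tested. In size without sign the median was 0.728, against 0.513 over all genes, 0.579 over 262 antisense-named genes and 0.499 over coding genes under the same count rule. At the edge of the rule, LINC01238 (means of 20 counts in control and 7.5 in knockdown), LINC02348 (7.0 and 20) and LINC02861 (20 and 15.25) were just inside, and LINC01684 (19.75 and 16.25), LINC00548 (19.25 and 7.5) and LINC00858 (14.25 and 19.25) just outside.

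**Figure D1:**
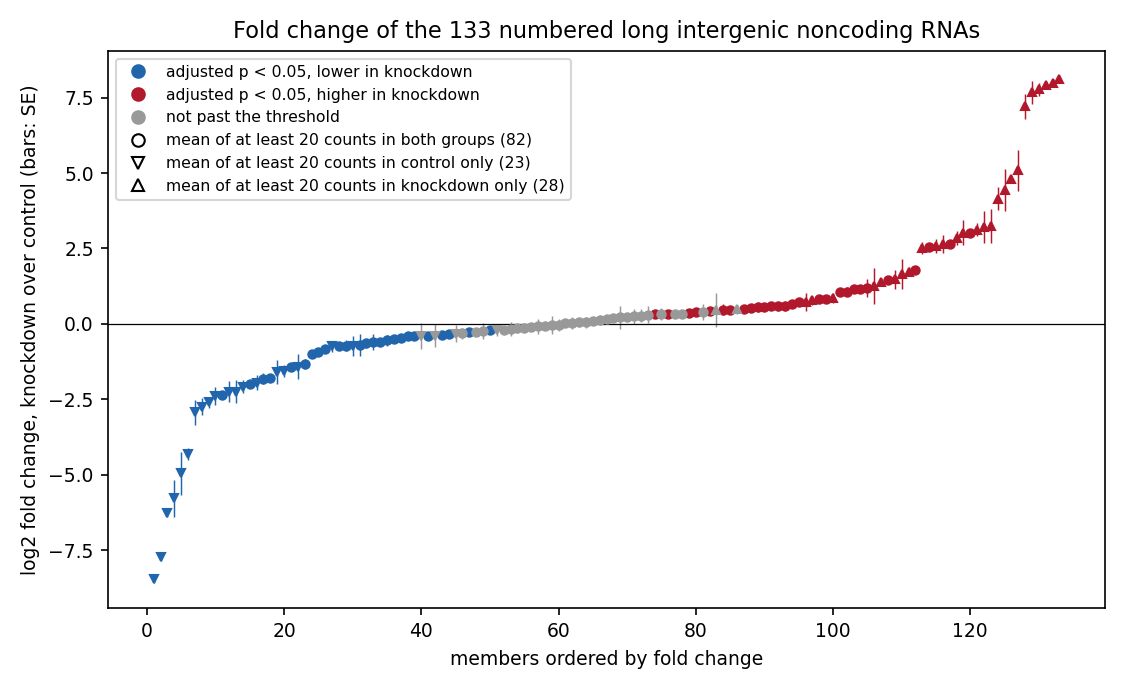
Log2 fold change of knockdown over control for the 133 numbered RNAs in rank order, with bars of 1 SE (n = 4 per group). Colour shows the 44 lower and 54 higher RNAs and the 35 not past the threshold; the ends of the curve are triangles, RNAs that reached a mean of 20 counts in 1 group only.

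In sum the 133 RNAs took a small part of the libraries. Their summed level was 531.9, 548.6, 521.9 and 546.8 CPM in control and 580.1, 600.5, 594.6 and 587.3 CPM in knockdown, that is 0.0503 to 0.0533% and 0.0594 to 0.0624% of all counts. Every knockdown library was above every control library, in a set that 28 RNAs entered through knockdown alone and 23 through control alone. Between 6 and 7 of the RNAs had no counts in a control library, and 2 to 4 had none in a knockdown library. Their median exon length was 3014 bases, against 5152 for coding genes, and their median level per kilobase of exon over the 8 libraries was 0.797 CPM, against 5.53 for coding genes.

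**Figure D2:**
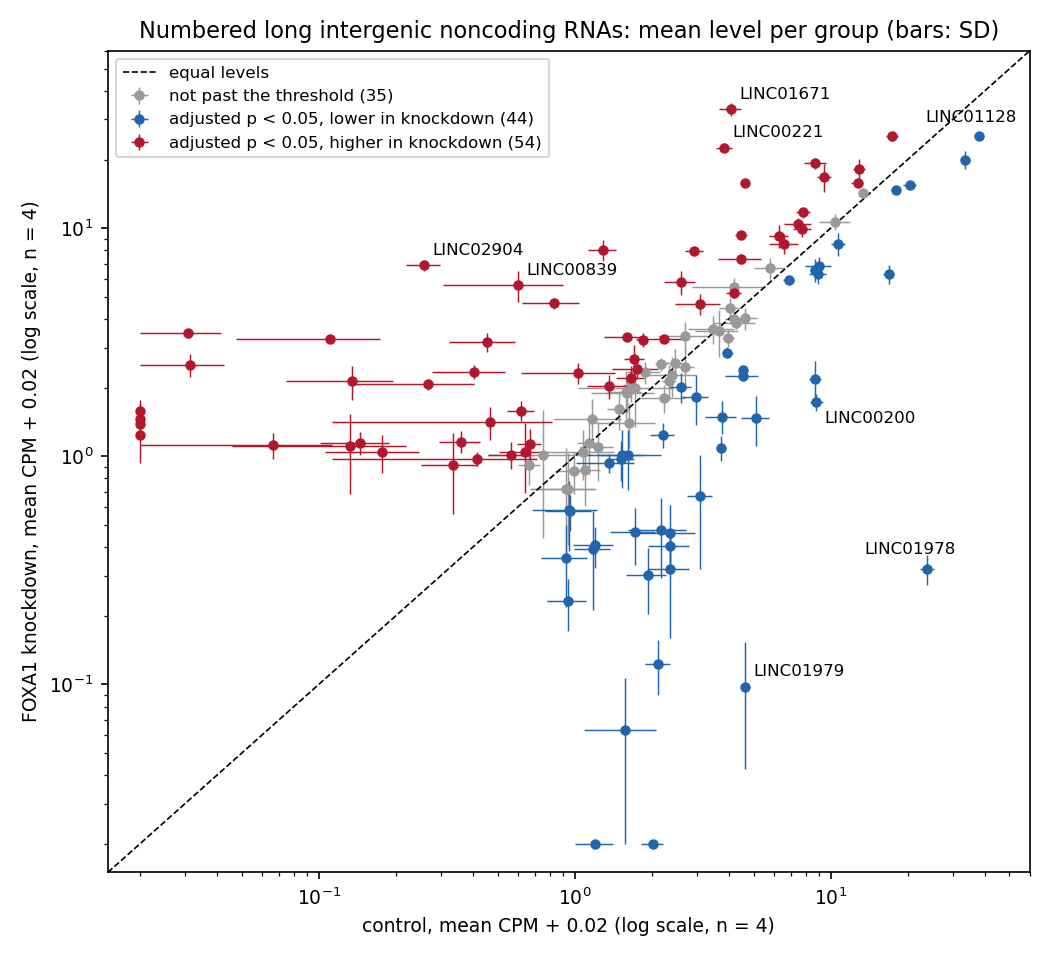
Mean level of each numbered RNA in control (x axis) and knockdown (y axis), in CPM on log axes with a small constant added so that a level of 0 can be drawn; bars are the SD over 4 libraries. RNAs with levels under 1 CPM in 1 group make up the far arms, LINC01978 lies far below the line of equal levels from a control level of 23.8 CPM, and LINC01671 lies above it at 33.2 CPM in knockdown.

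The deepest falls among well-counted RNAs came from 1 place on chromosome 17. LINC01978 (chr17:79919357-79925462, plus strand, GRCh38) had 507, 564, 510 and 517 counts in control and 6, 9, 6 and 6 in knockdown, or 23.8 ± 1.42 and 0.302 ± 0.0492 CPM, with 1.27% of the control level left. Its log2 fold change was -6.27 (SE 0.114), beside -5.60 (SE 0.0630) for FOXA1 itself; the difference between the 2 genes was not tested. LINC01979 (chr17:79915252-79926725, minus strand) contains the whole LINC01978 span on the other strand and had 103, 97, 99 and 108 counts in control and 3, 2, 2 and 0 in knockdown. The ratio of its levels was 58.8 (95% interval from counting error only, 28.3 to 147). Their exons share 220 bases, 11.7% of LINC01978 exon length, and since use of strand in the counting is not given in the sources used here, reads from the shared bases cannot be told apart.

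LINC00200 on chromosome 10 fell with little spread, from 193, 196, 196 and 188 counts to 37, 39, 36 and 40 (8.79 ± 0.502 to 1.71 ± 0.149 CPM, log2 fold change -2.36, SE 0.0754). LINC01239 on chromosome 9 had 49, 55, 38 and 66 counts in control and 3, 10, 4 and 10 in knockdown (-2.94, SE 0.423). LINC02714 on chromosome 11 had 39, 55, 59 and 53 against 7, 10, 8 and 9 (-2.60, SE 0.176). In these RNAs every knockdown library was below every control library. LINC01694 on chromosome 21 had 50, 59, 32 and 66 counts in control and 8, 8, 9 and 14 in knockdown (-2.40, SE 0.298). LINC01270 on chromosome 20 had 77, 68, 57 and 68 against 9, 12, 11 and 25, the highest of them in knockdown replicate 4 (-2.25, SE 0.342); 44.2% of its exon length is shared with LINC01271 on the other strand, which had means of 4.25 and 1.75 counts. LINC02593 on chromosome 1 went from 204, 179, 182 and 201 to 64, 55, 34 and 42 (-1.99, SE 0.145). The groups again did not overlap in any of them. LINC01134, also on chromosome 1, had 108, 126, 115 and 98 against 29, 34, 39 and 26 counts (-1.82, SE 0.191). LINC01819 on chromosome 2 had 84, 76, 80 and 87 against 28, 28, 21 and 19 (-1.78, SE 0.101).

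A few RNAs were counted in 1 group only. LINC00940 on chromosome 12 had 49, 40, 44 and 43 counts in control and none in any knockdown library, so it was at least 13.1-fold lower, set against 3 counts in the shallowest knockdown library. LINC00323 on chromosome 21 had 24, 28, 30 and 22 counts in control and none in knockdown, at least 7.76-fold lower. These 2 RNAs were the only members with no count in any knockdown library. In the other direction, 4 RNAs had no count in any control library. LINC00540 on chromosome 13 had 36, 41, 34 and 28 counts in knockdown and was at least 10.9-fold higher. LINC01960 on chromosome 2 had 42, 30, 28 and 28 counts and was at least 10.1-fold higher. LINC02835 on chromosome 4 had 32, 28, 30 and 31 and was at least 9.60-fold higher, and LINC02864 on chromosome 18 had 33, 33, 15 and 29 and was at least 8.53-fold higher. These 6 RNAs entered through 1 group, so that a difference was built into their choice.

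Among the rises, LINC01671 stood out by level. This RNA of chromosome 21 (chr21:42599280-42615058, minus strand) had 81, 99, 78 and 100 counts in control and 710, 817, 683 and 742 in knockdown, or 4.05 ± 0.408 and 33.2 ± 2.08 CPM (log2 fold change 3.03, SE 0.0857). Per kilobase of exon its level went from 2.28 to 18.7 CPM, and over the 8 libraries it had the most counts per kilobase of the 131 members with an exon length. LINC00221 on chromosome 14 (chr14:106482439-106521073, plus strand) lies among the variable segments of the immunoglobulin heavy chain locus and rose from 75, 89, 84 and 89 to 555, 532, 459 and 464 counts (3.82 ± 0.274 to 22.6 ± 1.08 CPM, 2.56, SE 0.0632). The 4 variable segments inside its span had means of at most 3.25 counts in either group. Both RNAs were detected in every control library, and no library of 1 group came near the other group.

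LINC02904 on chromosome 8 went from 4, 6, 5 and 6 counts to 161, 155, 142 and 153 (0.238 ± 0.0392 to 6.88 ± 0.386 CPM, 4.82, SE 0.122). LINC02035 on chromosome 3 had 26, 26, 25 and 35 counts in control and 209, 206, 156 and 149 in knockdown (2.66, SE 0.116). LINC02733 on chromosome 11 had 9, 12, 5 and 8 against 53, 61, 48 and 46 (2.58, SE 0.240). All knockdown libraries were above all control libraries for these RNAs. LINC01980 on chromosome 3 had 3, 0, 2 and 3 counts in control and 76, 80, 66 and 69 in knockdown, a ratio of 35.9 (counting interval 18.0 to 84.0). LINC01029 on chromosome 18 had a single count in control replicate 4 and 86, 82, 65 and 75 counts in knockdown, a ratio of 304 (54.2 to 12060). LINC02802 on chromosome 1 had a single count in control replicate 2 and 57, 71, 43 and 54 counts in knockdown, a ratio of 222 (39.5 to 8820). For these the interval, not the ratio, carries the size of the change: the fitted log2 fold change of LINC01029 was 7.67, and 9.25 without control replicate 4, and that of LINC02802 was 7.21, and 8.80 without control replicate 2. LINC02802 also shares 532 bases at 99.2% identity with LOC107985911 and 349 bases at 99.7% with the pseudogene LSP1P5, so its counts are uncertain.

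**Figure D3:**
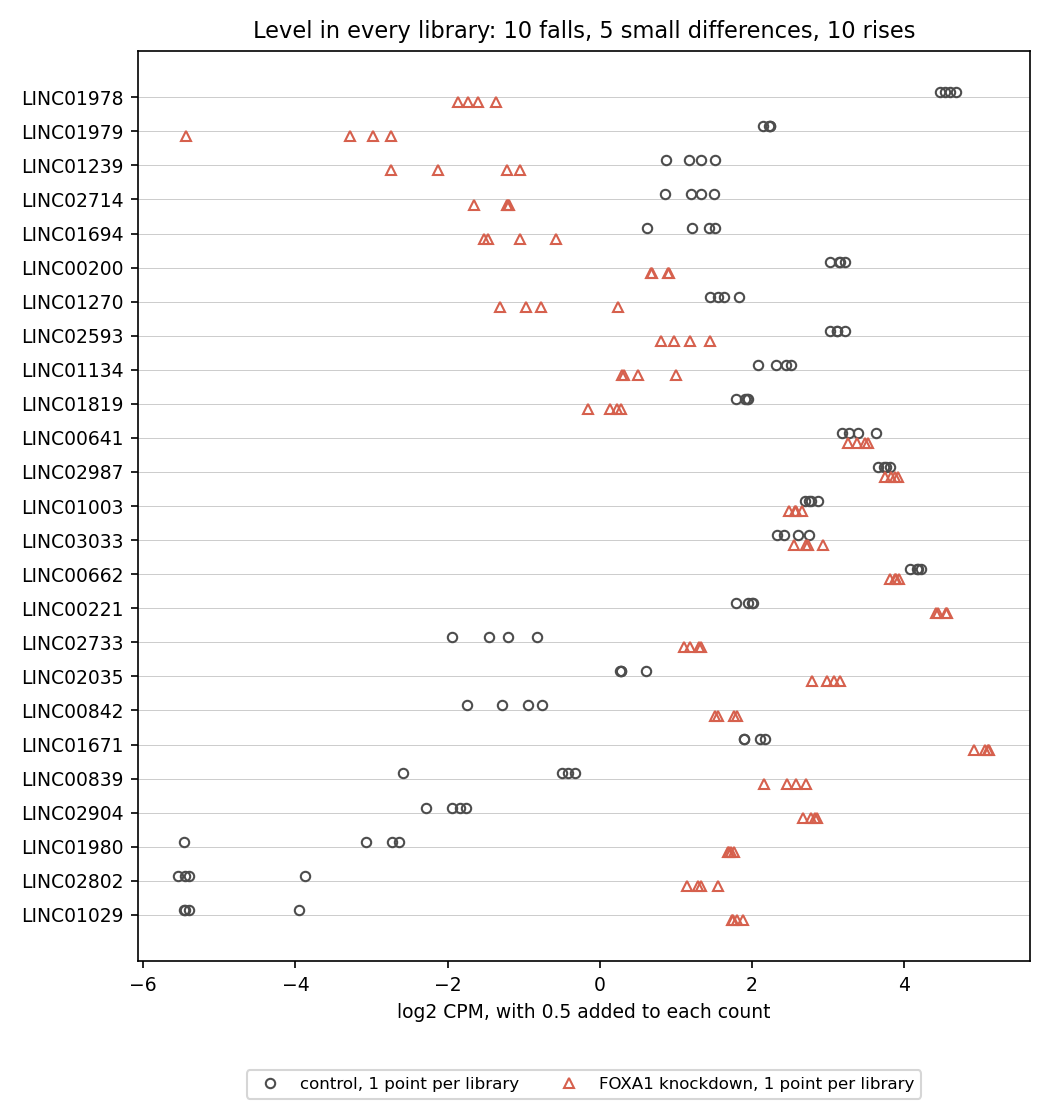
Level in each library, as log2 CPM with 0.5 added to each count, for the 10 largest falls and 10 largest rises with a mean of at least 50 counts in the higher group, and for the 5 smallest differences among RNAs with a mean of at least 100 counts. Circles (control) and triangles (knockdown) lie apart in the 20 RNAs with large changes and close together or mixed in the 5 between them.

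The 10 RNAs with the most counts per kilobase of exon differed in both directions. LINC01671, LINC01978 and LINC00221, described above, are among them and changed by more than 2-fold. The rest mostly changed by less. LINC01128 on chromosome 1, not among these 10, had the most counts without regard to length. They were 817, 886, 771 and 888 in control and 612, 619, 487 and 542 in knockdown (38.1 ± 1.55 to 25.3 ± 0.519 CPM, log2 fold change -0.59, SE 0.0325). LINC00857, an RNA described in several carcinomas, rose from 17.4 ± 0.968 to 25.3 ± 1.05 CPM (0.54, SE 0.0492), and per kilobase from 8.03 to 11.6 CPM. LINC00294 fell from 33.5 ± 1.44 to 19.97 ± 1.75 CPM (-0.74, SE 0.0692), with 8.0% of its exon length on the other strand of CSTF3 and 9.4% on the other strand of the pseudogene PIGCP1. LINC01873 rose from 9.45 ± 0.584 to 16.7 ± 2.37 CPM (0.82), LINC00888 from 7.45 ± 0.904 to 10.4 ± 0.725 CPM (0.47) and LINC01608 from 4.47 ± 0.856 to 7.33 ± 0.381 CPM (0.72). LINC01836 fell from 4.52 ± 0.682 to 2.24 ± 0.126 CPM (-1.01). LINC01609, which lies on chromosome 8 like LINC01608, had 3.63 ± 0.707 and 3.54 ± 0.835 CPM and did not pass the threshold.

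Among RNAs with a mean of at least 100 counts, the smallest differences were those of LINC00641, LINC02987, LINC01003, LINC03033 and LINC00662. LINC00641 had 230, 213, 191 and 288 counts in control and 225, 280, 220 and 224 in knockdown, and its groups overlapped (10.4 ± 1.46 and 10.7 ± 0.865 CPM). LINC02987 was at 13.4 ± 0.581 and 14.3 ± 0.727 CPM, and LINC03033 at 5.77 ± 0.761 and 6.68 ± 0.730 CPM; neither passed. LINC00662 fell, but only from 17.9 ± 0.751 to 14.7 ± 0.466 CPM (-0.29). LINC01003 had 6.84 ± 0.346 and 5.93 ± 0.295 CPM (-0.21) and passed in the main fit but not in 12 of the 17 other settings tried, which covered scaling, tests, filters and left-out libraries.

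Of 25 numbered RNAs that the cancer literature describes, 17 were found in the table by symbol and 12 were members. LINC00963, also listed, had a row without a symbol and is not among the 17. Of the 14 tested, 4 were lower, 7 higher and 3 not past the threshold, with a median log2 fold change of 0.45. Of all genes tested 77.1% passed, 37.7% lower and 39.4% higher, with a median of 0.019. LINC00511, reported at raised levels in breast tumours, had 20, 20, 24 and 17 counts in control and 4, 6, 3 and 6 in knockdown (-2.08, SE 0.223). LINC01234, reported in gastric and breast cancer, had 49, 43, 39 and 55 against 2, 2, 3 and 2, a ratio of 20.9 (counting interval 10.8 to 46.5). LINC00839 on chromosome 10 rose from 15, 16, 3 and 18 counts to 154, 145, 108 and 96 (3.24, SE 0.558), and its log2 fold change was 2.93 without control replicate 3. These groups did not overlap. LINC00668 had 3, 4, 2 and 2 counts in control and 30, 27, 19 and 25 in knockdown (3.12, SE 0.225). LINC00842 rose from 6, 11, 12 and 9 counts to 67, 85, 66 and 63 (2.85, SE 0.231), and shares 302 bases at 99.3% identity with a gene that had a mean of 253.4 counts. LINC00467, whose RNA is reported to encode a small mitochondrial protein, rose from 97, 100, 99 and 96 to 214, 225, 189 and 201 counts (4.45 ± 0.237 to 9.31 ± 0.227 CPM, 1.06). It was the only member among 7 listed genes reported to encode small proteins, of which 2 were found in the table by symbol.

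Other members of the cancer list changed less. LINC00665 rose from 7.81 ± 0.517 to 11.7 ± 0.597 CPM (0.58), and fell short of the threshold once the median shift of the 50 nearest expressed coding genes was taken out (0.11). LINC00205 rose from 12.9 ± 0.658 to 18.2 ± 1.96 CPM (0.50) and LINC01087, described in breast tumours, from 1.34 ± 0.243 to 2.01 ± 0.249 CPM (0.59). LINC00472 had 84, 105, 53 and 130 counts in control and 149, 128, 104 and 111 in knockdown, with overlapping groups, and LINC00115 had 48, 40, 32 and 44 against 61, 56, 39 and 52; neither passed the threshold.

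For scale, 28 long noncoding RNAs with names other than LINC and a number were looked up by symbol, and 26 were found. Among the 20 tested, 11 were lower, 5 higher and 4 not past the threshold (median -0.20). Of all genes tested 77.1% passed it, 37.7% lower and 39.4% higher. The largest rise was that of BCAR4, from a mean of 0.25 counts to 20.5 (log2 fold change 5.76, adjusted p = 1.34e-09, edgeR quasi-likelihood test). DSCAM-AS1, a luminal breast cancer RNA, fell from 186.2 ± 3.00 to 1.98 ± 0.377 CPM (log2 fold change -6.56, adjusted p = 7.72e-30, edgeR quasi-likelihood test), and HOTAIR, which lies in the HOXC cluster, from 4.83 ± 0.903 to 0.0809 ± 0.0511 CPM (-5.84, adjusted p = 1.25e-15, edgeR). The fall of LINC01978 (-6.27), a numbered RNA, lay between those of DSCAM-AS1 and HOTAIR. LINC00940 and LINC00323 had larger fitted falls (-8.47 and -7.72). Neither had a count in any knockdown library, so their folds are given above as bounds.

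Numbered RNAs of 1 locus did not always go together. On chromosome 1, LINC00115 lies wholly within the span of LINC01128 on the other strand and LINC01409 is 15078 bp from LINC01128. LINC01128 fell by 0.59 on the log2 scale, whereas LINC01409 was at 3.95 ± 0.209 and 3.29 ± 0.307 CPM and LINC00115 at 1.86 ± 0.279 and 2.32 ± 0.254 CPM, and neither passed. All 3 share sequence with other genes, LINC01409 1879 bases at 98.8% identity, LINC01128 412 bases at 98.8% and LINC00115 464 bases at 99.1%, so their counts are uncertain. On chromosome 19, LINC00662 and LINC02987 share 478 bp on opposite strands and had log2 fold changes of -0.29 and 0.10. Across the 131 RNAs with a position, the fold change and the median shift of the 50 nearest expressed coding genes had a Pearson r of 0.15 and a Spearman coefficient of 0.20, as a description over RNAs that share the same libraries; that shift ran from -0.59 to 0.65.

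The coding gene nearest to each RNA was then examined, since the counts assigned to these neighbours were not used to choose the RNAs. The choice could still bear on them. RNAs admitted through a single group had to differ, and neighbouring coding genes were themselves correlated. Overlapping pairs can also share reads, as where RHOF exons cover 41.7% of LINC01089 exon length on the same strand. The part of the choice and of shared reads in the percentages that follow was not tested. A coding gene lay within 100 kb of 96 of the 131 RNAs with a position, and 69 of these pairs, with 66 different neighbours, could be tested. The neighbour passed the threshold in 60 pairs (87.0%; 23 lower, 37 higher), against 82.2% of all coding genes (40.0% lower, 42.2% higher). It also changed at least 2-fold in 30 pairs (43.5%), against 28.4% of all coding genes and 23.9% of the nearest coding neighbours of coding genes. RNA and neighbour both passed in 42 pairs, and in 29 of them (69.0%) they moved in the same direction, close to the 65.4% of 6385 pairs of neighbouring coding genes; the difference was not tested. Both changed 2-fold in 19 pairs, 15 in the same direction and 4 in opposite directions. Over the 69 pairs Pearson r was 0.29 and the Spearman coefficient 0.35, against 0.25 and 0.31 over 9463 coding pairs. All pairs come from the same 8 libraries.

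By distance, 22 pairs lay within 10 kb without overlap and had a Pearson r of 0.54 and a Spearman coefficient of 0.70. Both genes passed in 17 of these pairs, and 11 of the 17 (64.7%) moved in the same direction, against 65.4% of neighbouring coding pairs within 100 kb. In all 9 pairs within 10 kb where both changed 2-fold the direction was the same. The 9 are not all separate cases, since LINC01978 and LINC01979 overlap and share the neighbour TBC1D16. These RNAs, LINC00511, LINC00668 and LINC00842 also met the count rule through a single group, so a difference was built into their choice. In the 35 pairs from 10 to 100 kb, Pearson r was 0.27 and the Spearman coefficient 0.21, and in the 12 overlapping pairs they were 0.06 and 0.19. Where both genes passed, 14 of 19 pairs (73.7%) from 10 to 100 kb and 4 of 6 overlapping pairs (66.7%) went the same way. On the same strand, 14 of 17 pairs that both passed went the same way (82.4%), and on opposite strands 15 of 25. Counts per class are small and the classes were not tested against each other.

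**Figure D4:**
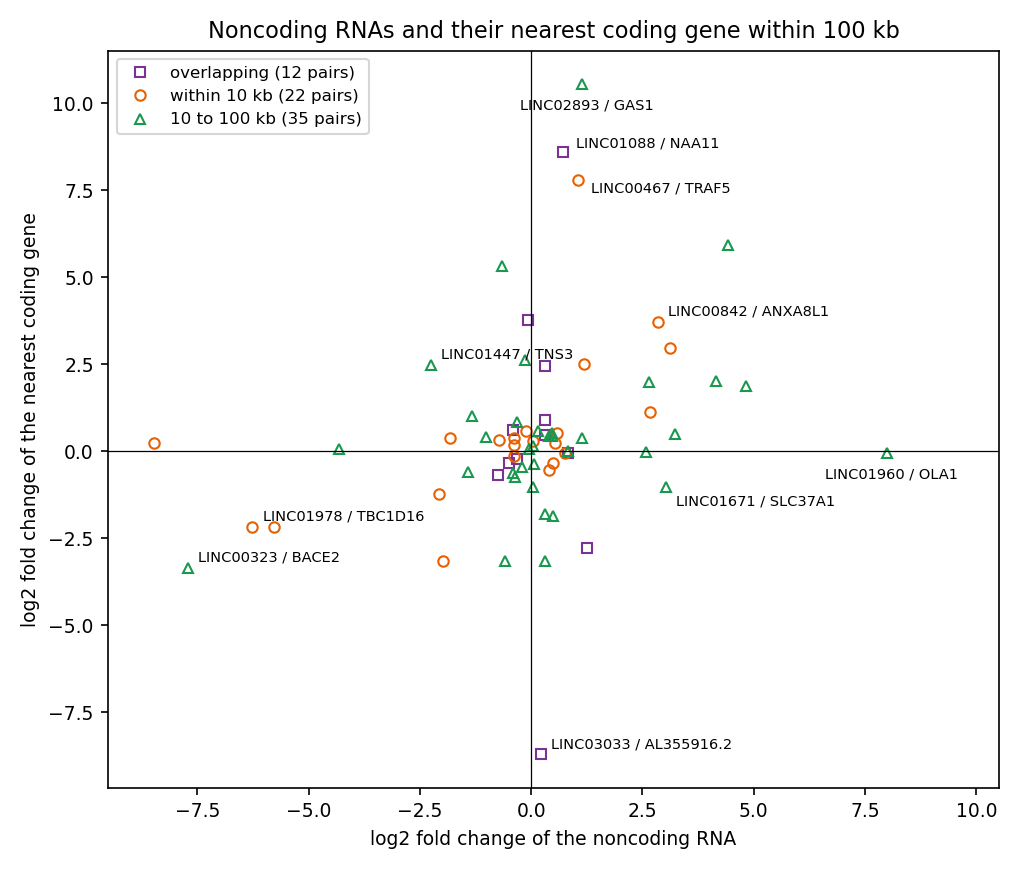
Log2 fold change (knockdown over control) of each noncoding RNA on the x axis and of its nearest coding gene on the y axis, 1 symbol per pair, for 69 pairs within 100 kb (12 overlapping, 22 within 10 kb, 35 from 10 to 100 kb). Points in the lower left and upper right moved together, such as LINC00323 and BACE2; points near the horizontal line, such as LINC01960 and OLA1, show an RNA with a large change beside a coding gene with little.

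Pairs that fell together included LINC00323 and BACE2, 19668 bp apart on opposite strands. BACE2, a protease related to the amyloid beta secretase, fell from 528.4 ± 12.0 to 51.4 ± 1.53 CPM (log2 fold change -3.36, SE 0.0267, adjusted p = 3.25e-29, edgeR quasi-likelihood test with Benjamini-Hochberg adjustment, as for the neighbours that follow). TBC1D16, a Rab GTPase-activating protein, lies 6881 bp from LINC01978 and 5618 bp from LINC01979 and fell from 126.5 ± 9.27 to 28.2 ± 1.41 CPM (-2.17, SE 0.0634, adjusted p = 2.45e-21, edgeR). So the RNA pair and its coding neighbour all fell, the RNAs by more on the log2 scale.

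Pairs that rose together included LINC01618 and ERVMER34-1, a gene for a retroviral envelope-like protein, 38354 bp away, which went from 0.759 ± 0.115 to 46.3 ± 1.47 CPM (5.92, adjusted p = 2.80e-26, edgeR). LINC01618 itself had 0, 2, 2 and 0 counts in control and 28, 28, 23 and 19 in knockdown. LINC00668 lies 3780 bp from ARHGAP28, which rose from 2.74 ± 0.360 to 21.6 ± 0.507 CPM (2.97, adjusted p = 2.02e-20, edgeR). LINC00842 lies 6578 bp from the annexin gene ANXA8L1, which rose from 5.13 ± 0.954 to 67.3 ± 3.14 CPM (3.71, adjusted p = 7.86e-21, edgeR) and belongs to a family with near-identical copies. LINC00491, with 2, 4, 3 and 1 counts in control and 41, 48, 42 and 56 in knockdown, lies 82422 bp from PAM, the peptide-amidating enzyme (6.91 ± 0.676 to 27.9 ± 1.35 CPM, 2.01, adjusted p = 1.68e-18, edgeR). LINC01393, with 3, 3, 2 and 6 against 26, 29, 21 and 16 counts, lies 59756 bp from MDFIC, which rose from 45.4 ± 2.90 to 181.8 ± 4.01 CPM (2.00, adjusted p = 3.06e-23, edgeR). Each of these RNAs met the count rule through knockdown alone, so a rise was built into its choice. The pairs were named because both genes changed 2-fold in the same direction. In 4 pairs picked out after their values were seen, the neighbour stood far from the rest: GAS1 beside LINC02893 rose by 10.55 on the log2 scale, NAA11 within LINC01088 by 8.61 and TRAF5 beside LINC00467 by 7.80, while AL355916.2, which shares 13.6% of LINC03033 exon length, fell by 8.71.

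Opposite directions with 2-fold changes on both sides were seen in 4 pairs. LINC01447 had 29, 52, 49 and 60 counts in control and 12, 10, 13 and 5 in knockdown (-2.25, SE 0.373), while TNS3, a tensin of focal adhesions 39381 bp away, rose from 31.6 ± 0.752 to 176.0 ± 7.54 CPM (2.48, adjusted p = 2.91e-25, edgeR). LINC01671 rose, as above, while SLC37A1, a sugar phosphate exchanger 17840 bp away, fell from 58.5 ± 3.17 to 28.7 ± 1.70 CPM (-1.03, adjusted p = 2.38e-15, edgeR). LINC03020 had 76, 97, 82 and 74 against 28, 43, 27 and 34 counts (-1.33), while NCOA2, a coactivator of nuclear receptors, rose from 31.0 ± 0.861 to 63.0 ± 2.90 CPM (1.02, adjusted p = 3.24e-16, edgeR). In the last pair the genes overlap on opposite strands: LINC00960 had 17, 5, 2 and 11 against 21, 22, 20 and 22 counts (1.26, SE 0.602), and the zinc finger gene ZNF717, which shares 10.0% of LINC00960 exon length, fell from 3.77 ± 0.380 to 0.551 ± 0.284 CPM (-2.79, adjusted p = 5.33e-11, edgeR). The log2 fold change of LINC00960 ran from 0.94 to 1.80 when libraries were left out, with the ends given by leaving out control replicate 3 and control replicate 1. LINC01447 and LINC00960 met the count rule through a single group, so a difference was built into their choice.

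Large changes of an RNA were also seen beside neighbours that did not pass the threshold. OLA1, an ATPase gene 45284 bp from LINC01960, had 107.0 ± 3.38 and 102.5 ± 1.46 CPM (adjusted p = 0.125, edgeR). RBM19, 43055 bp from LINC01234, had 57.1 ± 2.37 and 59.4 ± 1.59 CPM (adjusted p = 0.216, edgeR), and INCENP, 41789 bp from LINC02733, had 65.5 ± 1.55 and 65.1 ± 1.97 CPM (adjusted p = 0.834, edgeR). A p above the threshold does not show that these genes were unchanged.

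Reads could be shared in part of the set. Exons of 38 of the 131 RNAs overlapped exons of another counted gene, on the other strand for 31 and on the same strand for 13, and 17 RNAs had a copy of at least 200 bp at 98% identity or more in another gene. Of the 85 RNAs with neither, 66 passed the threshold, against 77.1% of all genes tested.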

How the data were processed

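RNA-seq libraries of SKBR3 cells, 4 control and 4 with FOXA1 knockdown, were grouped by their titles. The deposited values are whole-number counts per gene with no normalization, per the file headers. Salmon 1.9, DESeq2 3.16, FastQC and hg38 are named in the submitters' processing notes, with no role given; if the counts came from Salmon they are rounded estimates. Use of strand and the annotation release are not given in the sources used here. Positions, types and exon lengths came from GENCODE 29 (GRCh38) by Ensembl identifier, which matched 29358 of the rows (96.5%), and promoters from RefSeq.

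Genes were kept by filterByExpr in edgeR 4.0.16 (R 4.3.3; minimum 10 counts, total 15), which left 16430 and removed 14004. Knockdown was compared with control by TMM scaling and the quasi-likelihood test with robust estimation; p-values were adjusted by Benjamini-Hochberg over all genes tested, with a threshold of 0.05. The biological coefficient of variation was 4.56%. CPM are counts per 1000000 of the TMM-scaled total; SEs come from log2 CPM with 0.5 added to each count. Library totals of 19087878 to 23786684 counts set the precision. For a group at 0 counts in all libraries, a fold is a bound against 3 counts in that group's shallowest library; intervals for few counts are 95% and, like this floor, cover counting error only. Near-identical copies were found with BLAST 2.17.0.

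Named genes were FOXA1 and ERBB2; and, among members, the 10 with most counts per kilobase; the 10 largest rises and falls that averaged 50 counts or more in the higher group without overlap; those at 3 or fewer counts in a group; the 5 smallest differences at 100 counts or more; the edge of the count rule; list members; pairs with a neighbour changed 2-fold; and members within 50 kb of each other. Others were named after their values were seen. The members and lists were chosen with earlier results of these data known. Simulated knockdown data held 16102 genes, of which 200 were changed. The fit recovered 90.5% of genes changed by 0.5, 98.5% by 1 and 100% by 2 on the log2 scale, with 14 false calls. In the deposited data 77.1% of genes passed, and the numbered RNAs had a median of 46.5 counts. Recovery among these RNAs, at their own counts and spread, was not tested, so the rates are not theirs. Alternatives were other scalings, filters, count rules and tests (DESeq2 1.42.0, voom in limma 3.58.1), a replicate block, removal of the regional shift and leaving out each library.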

Additional observations from a re-analysis of the deposited data

Results flagged for a closer look

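For 55 items, the named numbered RNAs, FOXA1 and the summed level of the members, each group was examined for a library far from the others. Of these 110 groups of 4 libraries, 10 had one, where chance alone gives about 1 in 20 groups, or 5.5. In control, LINC00839 was at 0.142 CPM in replicate 3 (3 counts) against 0.687 to 0.776 in the others, LINC00857 at 18.875 CPM in replicate 4 against 16.887 to 17.035, and LINC02035 at 1.508 CPM in replicate 4 against 1.180 to 1.191. LINC01029 at 0.043 CPM in control replicate 4 and LINC02802 at 0.045 CPM in control replicate 2 are single counts beside 3 libraries at 0.

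In knockdown, LINC00472 was at 6.333 CPM in replicate 1 against 5.136 to 5.296, LINC01238 at 0.128 CPM in replicate 1 against 0.407 to 0.416, and LINC02714 at 0.298 CPM in replicate 1 against 0.407 to 0.416. LINC01234 was at 0.153 CPM in replicate 3 against 0.082 to 0.093, a difference of 1 count, and LINC01618 at 0.879 CPM in replicate 4 against 1.147 to 1.190. Knockdown replicate 1 was the lowest of its group for 47 of the 133 RNAs and the other knockdown replicates for 25 to 30; control replicate 3 was the lowest for 40 and the other controls for 25 to 33.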

How the results depend on the processing

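Across 17 settings, 83 of the 98 RNAs past the threshold stayed past it wherever tested and 15 did not in at least 1. Of all 133, between 90 (DESeq2) and 101 (upper-quartile scaling, library size only) passed. The median log2 fold change moved from 0.148 to 0.232 with library size only, and to 0.056 with members taken by a mean of at least 20 counts over all 8 libraries. With a filter of a mean of 50 counts, 64 members were tested, 47 passed and 20 also changed 2-fold; with 50 counts in either group as the member rule, 60 of 78 passed and 31 changed 2-fold. In the main fit 98 of 133 passed and 57 changed 2-fold. Fewer members were tested under these rules, and the part of that in the lower counts was not tested. Leaving out 1 library gave 12498 to 12865 genes past the threshold, 93 to 99 members, 55 to 57 members changed 2-fold, a median of 0.118 to 0.221, and 60 to 62 neighbours.

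With the replicate number as a block, 94 members passed (40 lower, 54 higher). The labels do not say what a number marks. Deviations of same-numbered libraries correlated at 0.088, 0.168, -0.035 and 0.066 over 12420 genes. Those of differently numbered libraries correlated at -0.119 to 0.074. Whether a shared number marks paired samples was not tested. Removing the regional shift left 97 members past the threshold and turned the sign of 3: LINC00456 (0.20, no longer past), LINC01278 (-0.05, no longer past) and LINC00504 (-0.26, past); the cause was not tested. Depth limits RNAs near 20 counts, where 1 library decides much of a group's mean.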

Other observations

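A further 70 rows had a LINC name in GENCODE 29 but not in the table's symbol column, 57 of them without any symbol, and so lay outside the rule; conversely 19 of the 133 RNAs carried another name in GENCODE 29. The rows that follow were chosen after their values were seen, although LINC00963 is also on the cancer list. LINC00963 had a mean of 827.4 counts over the 8 libraries and a log2 fold change of 0.08, short of the threshold. LINC00265 had 274.8 counts and fell by 1.29 on the log2 scale. LINC00470 had 35.75 counts and rose by 9.15, a fitted value that depends on the prior count.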
